A study of Mus musculus with 72 samples.

Results

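The weak reporters in densely hit regions were 228 of 17857 mapped integrations of a reporter gene in EBRTcH3 mouse embryonic stem cells. They were chosen by a rule with 3 parts: an integration on chromosomes 1 to 19, with at least 5 other integrations of any pool within 100 kb, and a level below -2. The level of an integration is the log2 ratio of its share of RNA reads to its share of DNA reads in its pool, averaged over 2 replicates, minus the pool median, so that -2 is 4-fold below that median. Of 17500 autosomal integrations, 2802 (16.01%) had 5 or more others within 100 kb. The weak reporters made up 8.14% of these 2802, and the remaining 2574, called the other reporters here, had a level of -2 or more at the same local density.

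All cells carried barcoded piggyBac reporters with the mouse phosphoglycerate kinase (mPGK) promoter and were of the EBRTcH3 line, in which the endogenous ROSA26 promoter drives a tetracycline-controlled transactivator. They were sorted for low eGFP, a fluorescent protein, and grown as 6 pools, mPGK-A to mPGK-F, in medium with leukemia inhibitory factor, PD0325901 (a MEK inhibitor) and CHIR99021 (a GSK-3 inhibitor). Each pool was split late into 2 cultures, which are technical replicates, and barcodes were read from the RNA and the genomic DNA of each. The sums over listed barcodes lay between 3386477 and 3693449 DNA reads and between 2880244 and 3508366 RNA reads per pool and replicate. The weak reporters numbered 36 in mPGK-A, 39 in mPGK-B, 30 in mPGK-C, 44 in mPGK-D, 31 in mPGK-E and 48 in mPGK-F. Their share among densely surrounded integrations ran from 6.43% in mPGK-E to 10.3% in mPGK-F, with a mean of 8.12% ± 1.35 (SD, n = 6 pools).

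TRIP, the assay used, places many copies of a reporter across the genome and reads how much RNA the same promoter yields at each site. The mPGK promoter belongs to a housekeeping gene of glycolysis and is active in most cell types, so a weak reporter is one that gave little RNA from a promoter that is usually on. The piggyBac transposon inserts at TTAA tetranucleotides and is known to favour open and transcribed chromatin. Compact chromatin is known to lower the output of reporters that land in it. Where many pools hit the same stretch, each weak reporter has independent reporters beside it, and the question addressed here is at what level these ran.

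A barcode is the random tag that links the RNA and DNA reads of a reporter to its position. The barcodes of the weak reporters that the results below turn on are printed in lower case, with the pool and the mm9 position they were listed at. The first is the reporter without RNA with the most DNA reads. The next 2 had the highest and the lowest neighbours among the 126 weak reporters with at least 5 neighbours from other pools. The fourth differed most from a neighbour under 1000 bp away. The fifth lay in the region with the most weak reporters, the sixth had a partner listed 1 bp away, and the seventh was chosen, after its values were seen, since its barcode was listed at a far higher level elsewhere. No bases are in capitals, since no part of a random tag is set apart.
mPGK-A, chromosome 9, 48974348, minus strand: cagtcccagtgaagtc
mPGK-F, chromosome 8, 80528152, plus strand: aattaaataacgatgc
mPGK-F, chromosome 13, 111190051, plus strand: atgtagtaaatggtaa
mPGK-C, chromosome 14, 70606164, plus strand: tatcactgtgatatat
mPGK-F, chromosome 10, 66648944, plus strand: acttttggcgaaaagt
mPGK-E, chromosome 4, 82924285, minus strand: taatcattacctatta
mPGK-F, chromosome 6, 145085928, plus strand: gtatcacggtatctag

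The levels of the weak reporters chose them and are given as a description. They ran from -12.63 to -2.003, with a median of -3.16 and a middle 50% between -4.38 and -2.53. The lowest value belongs to a reporter with 0 RNA reads, so it is set by the count added to the RNA reads (the pseudocount). The other reporters had a median of 1.42. More than 16-fold below the pool median were 80 weak reporters (35.1%). Over both replicates, the weak reporters had between 0 and 1309 RNA reads, with a median of 58.5, and the other reporters had between 27 and 110025, with a median of 1577. DNA reads, which count how common a reporter is in the pool, ran from 157 to 18580 with a median of 1942.5 for the weak reporters, and from 112 to 29502 with a median of 1682.5 for the other reporters. Averaged over pools, the median DNA count was 1910 ± 427 for the weak reporters and 1702 ± 214 for the other reporters (SD, n = 6 pools). It was higher for the weak reporters in 4 pools and lower in mPGK-B and mPGK-F.

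**Figure D1:**
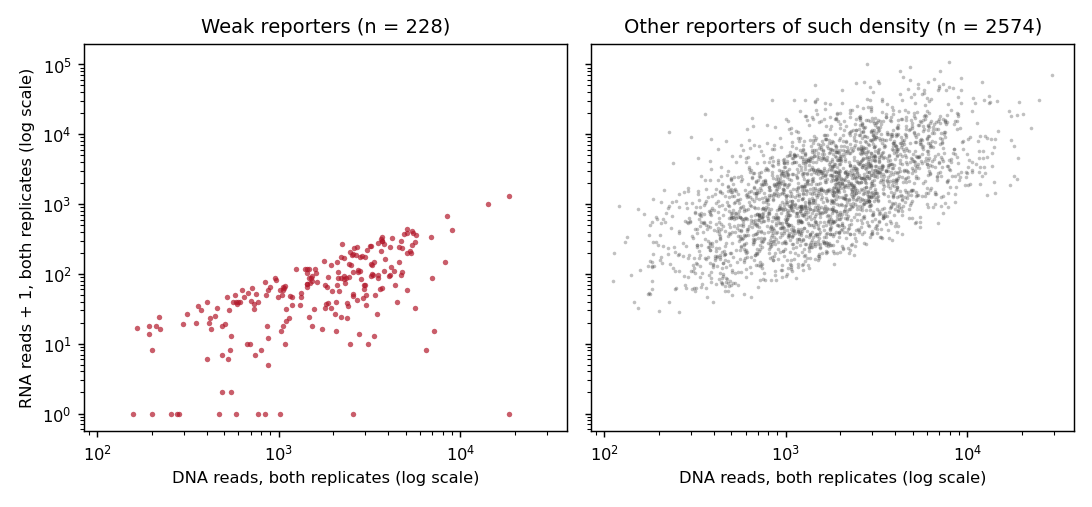
RNA reads plus 1 against DNA reads, summed over both replicates, on log axes, for the 228 weak reporters (left) and the 2574 other reporters of such density (right). The groups overlap widely in DNA reads, while the weak reporters hold 0 to 1309 RNA reads and the points at the bottom are the 12 without any.

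Just inside the threshold lay integrations at 72360685 on chromosome 1 (mPGK-F, level -2.003), on chromosome 17 at 87166418 (mPGK-D, -2.03) and at 90334046 (mPGK-C, -2.03). Just outside it lay those at 99599546 on chromosome 1 (mPGK-C, -1.999), 77565133 on chromosome 10 (mPGK-C, -1.99) and 56968561 on chromosome 4 (mPGK-D, -1.99). Their replicates stood up to 0.96 apart, so integrations this close to -2 could have fallen on either side.

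The replicates differed more for the weak reporters, which have fewer RNA reads. The error SD of a replicate, taken from the replicate differences, was 1.44 log2 units for the weak reporters and 0.48 for the other reporters. Both replicates were below -2 in 171 weak reporters (75%) and 1 of the replicates in the remaining 57. Replicates more than 2 log2 units apart were found for 47 weak reporters (20.6%) and 35 other reporters (1.36%). When members were instead chosen from replicate 1 alone, 228 integrations qualified, and in replicate 2, which that choice had not used, 172 of them (75.4%) were again below -2, with a median of -2.92. Chosen from replicate 2 alone, 225 qualified, and 172 (76.4%) were below -2 in replicate 1, with a median of -3.04. Among the remaining integrations of such density, 2.06% and 2.17% were below -2 in the replicate that had not been used. The replicates stem from cultures split from the same pool, so this agreement covers technical spread alone.

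When the RNA counts of each barcode were tested against its DNA counts (edgeR's quasi-likelihood test relative to the pool median, adjusted by Benjamini and Hochberg in each pool, threshold 0.05), 218 of the 228 weak reporters (95.6%) were called lower and 0 higher, where 33.8% of all integrations were called lower and 36.9% higher. The rule used the same counts, so nothing is read from this share. The 10 that were not called had between 166 and 2230 DNA reads with a median of 290, and in 8 of them the replicates were more than 2 log2 units apart. Of the other reporters, 223 (8.66%) were called lower and 1676 (65.1%) higher.

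Of the weak reporters, 12, from 4 pools, had 0 RNA reads in both replicates, and 27 more had 0 in 1 replicate. For those without reads, the level is set by the pseudocount, so a bound is given instead, computed as if 3 RNA reads had been counted in all. By this bound the 12 were at least 16.3-fold to at least 2108-fold lower than their pool medians. PCR reads are not independent molecules, so the bound covers counting error only. The bound of 2108-fold belongs to the reporter at 48974348 on chromosome 9 in mPGK-A, which had 8755 and 9825 DNA reads. Its 4 neighbours from other pools ran from -3.03 to 3.03. The reporter at 17604604 on chromosome 10 in mPGK-B had 1355 and 1207 DNA reads and was at least 317-fold lower, amid 6 neighbours with a mean level of 1.21. At 130275526 on chromosome 4 in mPGK-D, with 399 and 445 DNA reads and a bound of 87.4-fold, the 5 neighbours averaged 2.14 and reached 5.27, but the nearest, 2579 bp away in mPGK-B, was itself at -4.47. The neighbours averaged -0.14 at 114812071 on chromosome 10 (mPGK-B) and -1.45 at 108636412 on chromosome 13 (mPGK-A). Over the 12, the mean level of neighbours had a median of -0.25 and was 0 or more at 4.

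The neighbours of a weak reporter can be measured apart from it. As neighbours were taken the integrations of other pools, with another barcode, within 100 kb, which share no library and no tag with the reporter they surround. Each of the 2802 integrations had some, with a median of 5 in both groups. Values were averaged per pool, and the 6 differences between pool means were tested with an exact two-sided sign-flip permutation test, whose smallest possible p over 6 pools is 0.03125, with Benjamini-Hochberg adjustment over 6 measures. The measures of neighbours' levels and calls read the same neighbours, so they overlap. Their adjusted p falls below 0.05 only because all of them reached the smallest p, and a single measure alone would not pass. The integrations of a pool serve as neighbours in the other pools, so the 6 differences are not fully independent.

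Neighbours of weak reporters ran lower than neighbours of other reporters. Their mean level was 0.34 ± 0.21 around weak reporters and 1.11 ± 0.05 around other reporters (SD, n = 6 pools), a difference of -0.77 ± 0.21 or 1.71-fold. In the pools it ran from 0.08 (mPGK-D) over a median of 0.34 to 0.60 (mPGK-A) around weak reporters, and from 1.04 over a median of 1.11 to 1.17 around other reporters. The pools of the groups did not overlap, and the difference was negative in 6 of 6 pools (exact permutation p = 0.03125, adjusted p = 0.047). The nearest neighbour stood lower still, at 0.02 ± 0.36 beside weak reporters and 1.29 ± 0.09 beside other reporters, a difference of -1.26 ± 0.43 or 2.40-fold (lower in 6 of 6 pools, exact permutation p = 0.03125, adjusted p = 0.047). Beside weak reporters it lay between -0.60 (mPGK-B) and 0.39 (mPGK-A), and beside other reporters between 1.17 and 1.41. The nearest neighbour lay a median of 13997.5 bp from weak reporters and 8957 bp from other reporters. The groups are thus compared at unlike distances here, and the nearest neighbour at equal distance was not tested. With the weak reporters themselves left out as neighbours, the differences were -0.66 for all neighbours and -0.88 for the nearest, and both passed the same test (exact permutation p = 0.03125, adjusted p = 0.047).

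**Figure D2:**
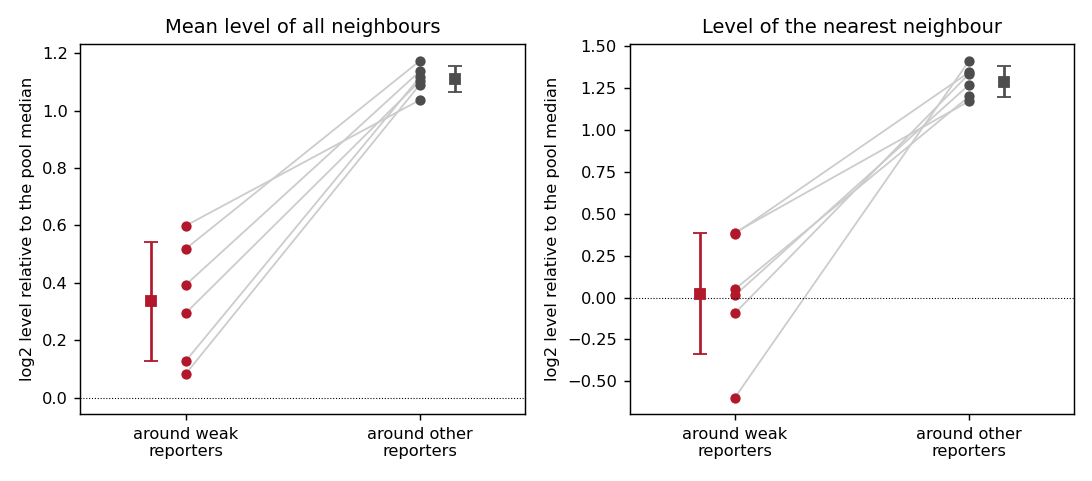
Mean log2 level of all neighbours within 100 kb (left) and of the nearest neighbour (right), each relative to the median of the neighbour's own pool. Points are the 6 pools, grey lines join the values of a pool, and squares with bars are the mean and SD over pools; every pool is lower around weak reporters than around other reporters.

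The calls on the neighbours showed the same order. The share of neighbours that edgeR called lower than their pool median was 22.6% ± 3.34 around weak reporters and 15.3% ± 0.563 around other reporters, a difference of 7.32 ± 3.005 percentage points (higher in 6 of 6 pools, exact permutation p = 0.03125, adjusted p = 0.047). Both shares lie below the 33.8% of all integrations. The share called higher was 45.3% ± 4.41 around weak reporters and 60.6% ± 1.03 around other reporters, a difference of -15.3 ± 4.76 percentage points (lower in 6 of 6 pools, exact permutation p = 0.03125, adjusted p = 0.047), where 36.9% of all integrations were called higher. Reporters called higher were thus less frequent around weak reporters than around other reporters of like density.

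The difference in level was larger within 5 kb than beyond. Within 1 kb, neighbours averaged -0.34 ± 1.02 around weak reporters (35 pairs) and 1.43 ± 0.34 around other reporters, lower in 5 of 6 pools. From 1 to 5 kb they averaged -0.20 ± 1.25 around weak reporters (52 pairs) and 1.66 ± 0.25 around other reporters. From 5 to 20 kb they averaged 0.34 ± 0.31 around weak reporters and 1.38 ± 0.15 around other reporters. The means from 20 to 50 kb were 0.37 ± 0.33 around weak reporters and 1.17 ± 0.04 around other reporters, and those from 50 to 100 kb were 0.48 ± 0.30 around weak reporters and 0.96 ± 0.03 around other reporters. In the 4 classes past 1 kb, neighbours were lower around weak reporters in 6 of 6 pools. These classes were not tested one by one, and the closest rest on few pairs. Neighbours below -2 made up 17.1% within 1 kb and 26.9% from 1 to 5 kb of weak reporters, and 6.74% and 4.36% at these distances from other reporters, so most of the closest neighbours of a weak reporter were not weak.

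**Figure D3:**
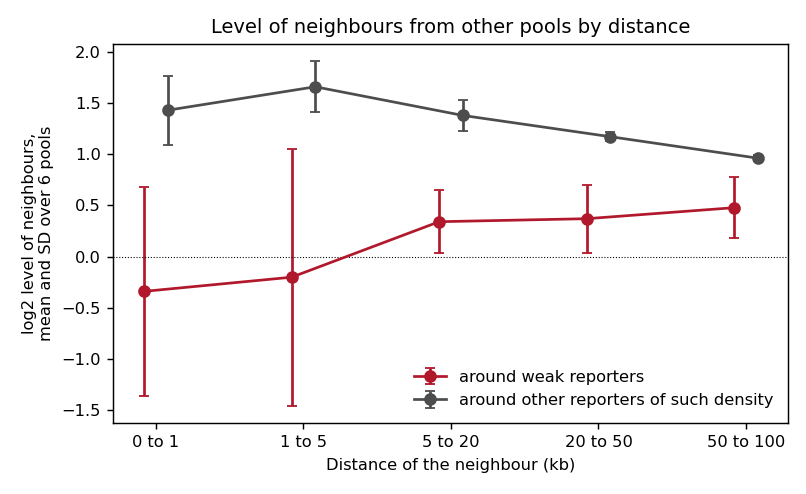
Log2 level of neighbours from other pools in 5 classes of distance in kb, as mean and SD over 6 pools. The curve around weak reporters climbs with distance to 0.48 at 50 to 100 kb, that around other reporters comes down to 0.96, and the bars around weak reporters are widest within 5 kb, where 87 pairs lie.

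Most weak reporters did not lie in surroundings below the pool median, though their surroundings were often lower than those of other reporters. The neighbours averaged 0 or more around 133 weak reporters (58.3%) and around 80.7% of other reporters. They averaged 1 or more around 77 weak reporters and 1431 other reporters, and less than 1 around 66.2% and 44.4%, respectively. An average below -2 was found around 10 weak reporters (4.39%) and 32 other reporters (1.24%), and one below -1 around 44 weak reporters (19.3%) and 155 other reporters (6.02%). The level of a weak reporter minus the mean of its neighbours had a median of -3.93. The rule chose these reporters for a low level, so this gap is a description. The SD between the neighbours of a reporter was 1.78 ± 0.24 around weak reporters and 1.77 ± 0.07 around other reporters (mean ± SD over 6 pools).

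Among the 126 weak reporters with at least 5 neighbours, those with the highest neighbours lay far below them. These 5 were picked for high neighbours among reporters chosen for a low level. That choice fixes a wide gap, so the values are a description. The 102 with fewer neighbours had neighbour levels of -5.42 to 4.38, more extreme at both ends, and were outside the rule for named reporters. At 80528152 on chromosome 8, the mPGK-F reporter gave 38 and 10 RNA reads from 454 and 696 DNA reads, a level of -2.17 and -4.65 in the replicates. Its 6 neighbours ran from 2.90 to 5.10 and averaged 3.55, so each of them was above every value of the weak reporter. However, the nearest of the 6 lay 92868 bp away, the longest such distance of any weak reporter, so none of them was close. Of the 3 further integrations within 100 kb, which are not neighbours by this definition, 1 was below -2. At 80627081 on chromosome 7, the mPGK-D reporter gave 60 and 26 RNA reads from 3530 and 3477 DNA reads, a level of -4.76, amid 6 neighbours between 1.06 and 5.80. At 79870317 on chromosome 11 (mPGK-F), 5 and 0 RNA reads came from 178 and 222 DNA reads, amid 5 neighbours between 2.38 and 3.74. The reporters at 71056382 on chromosome 17 (mPGK-E, level -2.60) and 165885806 on chromosome 2 (mPGK-F, -2.54) had neighbours averaging 2.93 and 2.86. At the last of these sites the nearest neighbour was the lowest, at -0.53.

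The 5 weak reporters with the lowest neighbours, again among those with at least 5, were within 1 log2 unit of the mean of these neighbours. Picking low neighbours around reporters of a low level favours a small gap, so these values too are a description. Among those with fewer, the lowest neighbour level, -5.42, lay around the mPGK-D reporter at 48934034 on chromosome 9, which was 2.38 above it and had the reporter at 48974348 without RNA reads as its nearest neighbour. The level of that neighbour is set by the pseudocount, and the mean of -5.42 includes it. At 111190051 on chromosome 13, the mPGK-F reporter was at -2.14 and -2.13 in the replicates, and its 5 neighbours averaged -2.80. This mean includes a neighbour at -10.63, the 1 of the 5 that was below -2. At 44946768 on chromosome 13, the mPGK-F reporter had 134 and 208 RNA reads from 1579 and 2140 DNA reads, a level of -2.07, and its 6 neighbours ran from -5.02 to 0.65, with 3 of 6 below -2. At 118540413 on chromosome 6 (mPGK-C, -2.44), 3 of 5 neighbours were below -2 and the highest reached -0.12. The remaining cases, at 66650253 on chromosome 10 (mPGK-E, -2.12) and 75690545 on chromosome 14 (mPGK-A, -2.13), lay in the regions with the most weak reporters described below. The 5 differed from the mean of their neighbours by -0.33 to 0.66.

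Some weak reporters had a far stronger reporter of another pool almost on top of them. A nearest neighbour within 1000 bp was found for 32 weak reporters, from 6 pools. It ran from -4.16 to 3.65 with a median of -0.26, was 0 or more for 12 and below -2 for 6. No such counts are given for other reporters, so nothing is read from them. The widest step was on chromosome 14, where the mPGK-C reporter at 70606164 gave 12 and 10 RNA reads from 991 and 1385 DNA reads, a level of -4.92 and -5.53 in the replicates. At 651 bp from it on the opposite strand, an mPGK-A reporter gave 1491 and 1304 RNA reads from 277 and 381 DNA reads, a level of 3.83 and 3.43. On chromosome 10, the mPGK-C reporter at 62605834 had 0 and 22 RNA reads and a level of -5.93, and an mPGK-D reporter 726 bp away was at 2.40. The replicates of the weak reporter were far apart, at -8.81 and -3.08, both below each replicate of that neighbour. On chromosome 13, the mPGK-F reporter at 51221315 had 15 and 0 RNA reads and a level of -6.89, and an mPGK-D reporter 218 bp away was at 0.25. The replicates of this weak reporter, -4.30 and -9.47, were far apart, and the lower one is set by the pseudocount. These sites were picked for the widest steps among reporters chosen for a low level, so their values are a description.

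Some integrations of different barcodes were listed 1 bp apart. There were 80 such pairs among all 17857 integrations, all 80 on opposite strands, and no position was listed more than once. Whether such a pair marks adjacent sites or the same insertion site listed from either strand cannot be told from the table, so the 1 bp is a distance between listings. A weak reporter was in 5 of the 80 pairs, always with a partner from another pool, and none of the 5 partners was below -2. In 30 of the 80 pairs the first integration was densely surrounded, and 26 of these 30 pairs combined different pools. Weak reporters made up 8.14% of all densely surrounded integrations, so nothing is read from these counts. On chromosome 4, the mPGK-E reporter at 82924285 was at -6.61 with 4 RNA reads from 874 DNA reads over both replicates, and its mPGK-D partner at 82924286 was at -0.10 with 1513 and 1539 RNA reads from 5339 and 5249 DNA reads. On chromosome 14, the mPGK-B reporter at 86726283 was at -2.87 and -3.68 in the replicates, and its mPGK-E partner was at 1.38 and 1.30. On chromosome 17, the mPGK-C reporter at 90334046 was at -2.03, and its mPGK-E partner was at 2.79. The mPGK-D reporter at 104877572 on chromosome 7 was at -2.34 and its partner at -0.98. The mPGK-C reporter at 80628919 on chromosome 15 was at -2.86 and its partner at -0.60. In each pair the weak reporter chosen for its low level was the lower of the pair, which the choice fixes when the partner is not weak, so these values are a description.

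Neither measure of strand passed its test. On the plus strand lay 119 weak reporters and 109 on the minus strand, against 1288 and 1286 of the other reporters. The share on the plus strand was 51.6% ± 4.86 of weak reporters and 50.1% ± 2.17 of other reporters, a difference of 1.52 ± 6.71 percentage points that ran from -9.68 in mPGK-A to 8.05 in mPGK-D (higher in 3 of 6 pools, exact permutation p = 0.625, adjusted p = 0.75). Neighbours on the same strand made up 49.7% ± 3.10 of the neighbours of weak reporters and 49.3% ± 1.65 of those of other reporters, a difference of 0.46 ± 3.77 percentage points (exact permutation p = 0.78125, adjusted p = 0.78). These tests over 6 pools do not show the shares to be equal, since single pools differed by up to 9.68 points on the plus strand. Neighbours on the same strand averaged 0.23 ± 0.21 around weak reporters (541 pairs) and 1.17 ± 0.04 around other reporters, and neighbours on the opposite strand averaged 0.54 ± 0.35 around weak reporters (556 pairs) and 1.13 ± 0.05 around other reporters. Both were lower around weak reporters in 6 of 6 pools, and whether the difference depended on strand was not tested.

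The weak reporters sat at the thinner end of the dense regions. They had a mean of 5.84 ± 0.17 other integrations within 100 kb and the other reporters 6.33 ± 0.08 (SD, n = 6 pools). Their share was 9.84% among integrations with 5 others, 8.44% with 6, 7.11% with 7, 6.67% with 8, 4.51% with 9 and 1.28% with 10 or more, where 2 of 156 integrations were weak. The rule used both density and level, so these shares were not tested. Below 5 others, outside the rule, 3270 of 14698 autosomal integrations (22.2%) were below -2. The median level was -3.16 for the weak reporters in dense regions and -3.25 for the weak integrations outside. Those without any RNA read were 5.26% of the weak reporters in dense regions and 5.17% of the weak integrations outside. Compared within classes of equal local density, the difference in neighbour level was -0.73 (exact permutation p = 0.03125, adjusted p = 0.047).

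Weak reporters occurred in dense regions of all 19 autosomes. Their share of the densely surrounded integrations was highest on chromosome 13, with 15 of 107 (14.0%), chromosome 14, with 27 of 216 (12.5%), chromosome 4, with 23 of 216 (10.6%), and chromosome 10, with 20 of 199 (10.1%). It was lowest on chromosomes 3 (4.76%), 11 (4.88%), 7 (5.22%) and 6 (5.33%). Chromosome 14 alone held 11.8% of the weak reporters and 7.71% of the densely surrounded integrations. These shares rest on 4 to 27 weak reporters a chromosome and were not tested. At any local density, the share of integrations below the same level threshold was 20.0% over all autosomes. It was again highest on chromosome 14 (25.8%), so the high share there was not particular to dense regions. On chromosomes 13 (20.2%) and 10 (20.5%) it was near the share over all autosomes, and on chromosome 4 (17.6%) it was lower. These shares at any density were not tested either. Within chromosomes, a comparison added after the data were seen, the difference in neighbour level was -0.74 (exact permutation p = 0.03125, adjusted p = 0.047).

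**Figure D4:**
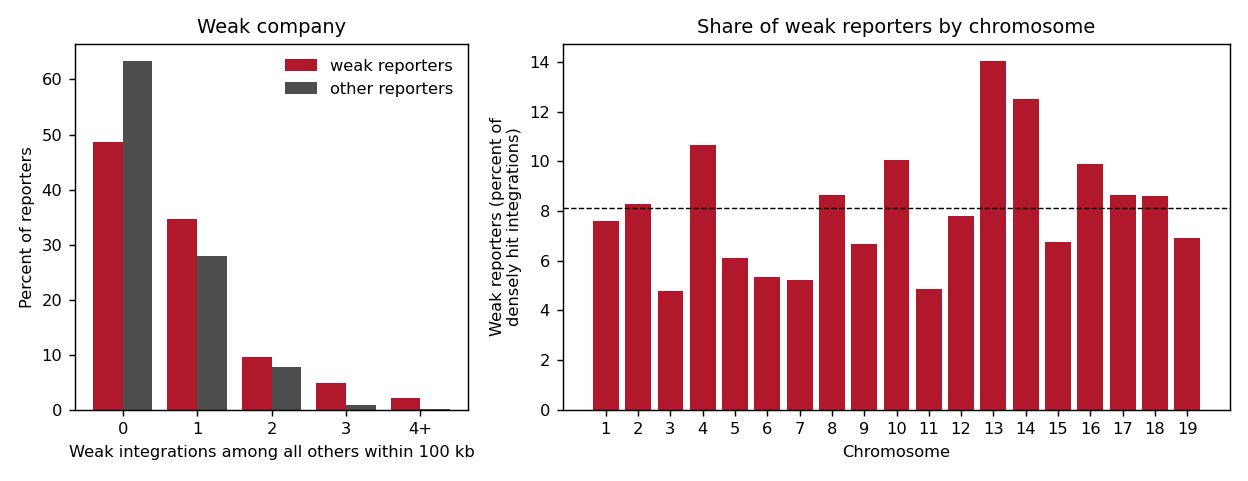
Left, percent of weak and other reporters by the number of integrations below -2 among all others within 100 kb, where 48.7% of weak reporters and 63.3% of other reporters have 0. Right, weak reporters as a percent of the densely hit integrations of each autosome, with the overall 8.14% as a dashed line and the highest bar, 14.0%, at chromosome 13.

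Most weak reporters were alone or nearly so. Among all other integrations within 100 kb, of any pool, 111 weak reporters (48.7%) had 0 below -2, 79 (34.6%) had 1, 22 had 2, 11 had 3 and 5 (2.19%) had 4. Of the other reporters, 63.3% had 0, 27.9% had 1, 7.77% had 2, 0.894% had 3 and 0.155% had 4. More weak than stronger integrations lay around 13 weak reporters and around 9 of the far more numerous other reporters. The 111 weak reporters without weak company had a median level of -2.96, and the 38 with at least 2 weak integrations around them had a median of -3.37.

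Chained over gaps of at most 100 kb, the 228 weak reporters formed 180 regions. Of these, 142 held 1 weak reporter, 31 held 2, 5 held 3, and 1 each held 4 and 5. The 38 regions with 2 or more held 86 weak reporters (37.7%), and 33 of the 38 combined weak reporters of at least 2 pools. Integrations drawn without regard to level would also often come from different pools. How often was not tested, so nothing is read from this count. The 38 regions spanned a median of 37.0 kb, and in 17 of them no integration at -2 or above lay between the weak reporters. In 15 of these 17, however, the region was a pair of neighbouring weak reporters with nothing between.

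The region with the most weak reporters spanned 66582567 to 66682497 on chromosome 10, where all 5 integrations were weak and came from 4 pools. From the left, they were at -2.69 (mPGK-D), -4.39 (mPGK-F), -2.12 (mPGK-E), -2.34 (mPGK-B) and -2.06 (mPGK-D). The lowest, at 66648944, gave 29 and 18 RNA reads from 1323 and 1247 DNA reads, and the mPGK-E reporter 1309 bp to its right gave 59 and 56 RNA reads from 717 and 757 DNA reads. The replicates of the mPGK-B reporter, -2.31 and -2.45, were close, while the left mPGK-D reporter had -1.58 and -3.88. Of the 5, 4 lay on the plus strand. The 5 integrations flanking the region within 100 kb, all of mPGK-A and mPGK-C, were at 0.39, 2.75 and 2.06 on the left and 1.23 and 2.15 on the right. The low stretch thus held 4 pools and its flanks the other 2, so no pool had a reporter in both.

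The second region spanned 75603559 to 75744213 on chromosome 14, with 4 weak reporters of 3 pools among 7 integrations. They were at -3.61 (mPGK-B), -5.29 (mPGK-F), -2.13 (mPGK-A) and -3.03 (mPGK-A). The mPGK-F value rests on 6 and 0 RNA reads. The last mPGK-A value averages 0.28 and -6.37 in the replicates, from 16 and 0 RNA reads, and this reporter is the 1 weak reporter with a replicate at 0 or more. It was not called lower by edgeR. The 3 remaining integrations inside, of mPGK-E, mPGK-B and mPGK-D, were at -0.12, -0.21 and 0.22, so the weak reporters stood beside reporters near the pool median. The 5 flanking integrations ran from -0.55 to 1.14.

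The third region, 91378307 to 91470503 on chromosome 2, held 3 weak reporters at -3.60 (mPGK-F), -2.05 (mPGK-A) and -3.92 (mPGK-A). Between them lay an mPGK-C reporter at -4.73, which is no member since it had 3 others within 100 kb. All 4 integrations inside were thus below -2, while the 4 on the flanks ran from -0.43 to 1.99. The mPGK-F value averages -6.27 and -0.92, from 0 and 23 RNA reads, and edgeR did not call that reporter lower. On chromosome 4, between 104767776 and 104867785, weak reporters at -4.02 (mPGK-B), -4.20 (mPGK-E) and -5.00 (mPGK-E) lay among reporters at 1.46, -0.37 and 1.34. The value of -4.20 averages -7.35 and -1.05, from 0 and 46 RNA reads, and edgeR did not call this reporter lower. A strong contrast over a short distance lay at the right end of this region. The weak mPGK-E reporter there gave 9 and 14 RNA reads from 1178 and 1018 DNA reads. An mPGK-D reporter 4624 bp away gave 55 and 91 RNA reads from 84 and 99 DNA reads. A further integration below -2 lay 32049 bp left of the region, at -5.17 (mPGK-D), and had 2 others within 100 kb. On chromosome 14, between 86726283 and 86795889, weak reporters at -3.24 (mPGK-B), -4.22 (mPGK-F) and -2.69 (mPGK-F) lay among reporters at -0.63 and 0.92, and the middle one was 62 bp from the mPGK-C reporter at 0.92.

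**Figure D5:**
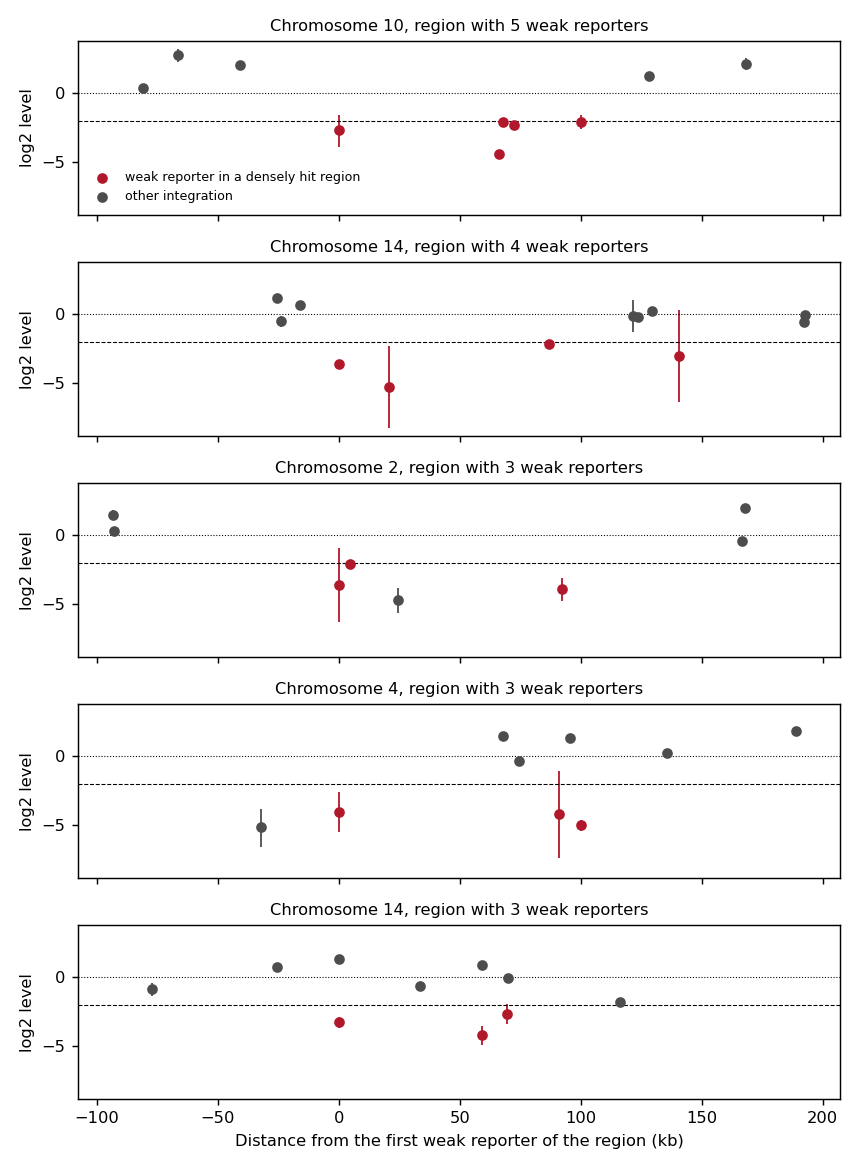
Log2 level of each integration against its distance in kb from the first weak reporter, in the 5 regions with the most weak reporters and 100 kb on either side; points are means and vertical lines join the 2 replicates, the dashed line is at -2 and the dotted line at the pool median. The low block on chromosome 10 stands between stronger flanks, while stronger reporters lie between the weak ones on chromosomes 14 and 4.

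A barcode can also be compared with itself, where the same tag was listed in another pool at another position. This was so for 17 weak reporters, and none had its barcode listed at the same position in another pool. Whether such listings are separate reporters with an equal tag was not tested. Their second listings ran from -6.86 to 4.85 with a median of -0.28. The lowest of them had 0 RNA reads, so its level is set by the pseudocount. Of the 17, 5 (29.4%) were below -2 again and 8 were at 0 or more. The other reporters had 151 second listings with a median of 0.12, of which 18.5% were below -2. The barcode gtatcacggtatctag was at -4.25 at 145085928 on chromosome 6 in mPGK-F, with 35 RNA reads from 1187 DNA reads, and at 4.85 at 87847866 on chromosome 12 in mPGK-A, with 31365 RNA reads from 3189 DNA reads. The barcode acttttggcgaaaagt, lowest in the chromosome 10 region, was at -0.28 in mPGK-E at 64172485 on the same chromosome. The barcode taatcattacctatta was low at both its sites, at -6.61 on chromosome 4 in mPGK-E and at -6.86 at 36932662 on chromosome 6 in mPGK-C, where 0 RNA reads came from 329 DNA reads.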

How the data were processed

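The deposited table lists, for each integration, the pool, barcode, chromosome, position and strand, with the raw count of RNA and of DNA reads in each replicate. The authors made these counts from barcode PCRs of genomic DNA and reverse-transcribed RNA, per the labels' protocols. Bowtie2 2.0 and mm9 are named in the submitters' processing notes. The sources used here do not say how the 2 PCRs per culture were combined or if positions count from 0 or 1. Genes at the positions are not reported here, since the annotation in hand is of another build.

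The level used a pseudocount of 0.5 RNA reads. Totals are sums over listed barcodes. RNA and DNA counts were compared within each pool with edgeR 4.0.16 in R 4.3.3 (TMM, filterByExpr, which removed 0 barcodes, log2 ratios shifted to the pool median, Benjamini-Hochberg within the pool), with DESeq2 1.42.0 as an alternative. The replicates are technical, so these calls measure only the spread between cultures of a pool. Replicate numbers pair RNA and DNA of the same culture, per the labels; the correlation of their deviations ran from -0.00213 to 0.0575 over the pools. The remaining steps ran in Python 3.11.15 (pandas 2.3.3, scipy 1.17.1, numpy 2.4.6). Of all steps, the edgeR calls, for mPGK-A, and the mean level of neighbours were tried on simulated data.

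Members, measures and named items were chosen with earlier results of these data known. Named are the 5 weak reporters with the highest and the 5 with the lowest neighbour level (of those with at least 5 neighbours), the 5 without RNA with the most DNA reads, 3 on each side of the threshold, the 3 with the widest step to a neighbour within 1000 bp, and the 5 regions with the most weak reporters. The pairs 1 bp apart and the repeated barcodes were named after their values were seen. Alternatives were another pseudocount, threshold, neighbour distance and count model, leaving out low DNA counts, a replicate or a pool, and comparisons at equal density or within chromosomes.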

Additional observations from a re-analysis of the deposited data

Results flagged for a closer look

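The difference in the share of neighbours called higher was smaller in mPGK-A than in the other pools. It was -6.45 percentage points in mPGK-A and between -18.8 and -14.6 in the other 5 pools, with the gap to the nearest pool at 0.662 of the whole range. The shares in mPGK-A were 53.8% around weak reporters and 60.3% around other reporters. This was 1 of 11 sets of 6 pool values looked at, and chance sets apart a value in this way in about 5% of sets.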

How the results depend on the processing

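The 4 differences in neighbours, as means over pools, kept their direction in every alternative run, and passed in each that kept 6 pools. With 5 pools the smallest p is 0.0625, so none could pass, and density was counted anew, which left 107 to 133 weak reporters. Leaving out a pool or a replicate gave -0.78 to -0.62 for neighbour level, -1.25 to -0.98 for the nearest neighbour, 4.71 to 7.46 points for neighbours called lower and -16.5 to -11.8 points for neighbours called higher. The share called lower was 4.71 points higher around weak reporters without mPGK-E, against 7.32 with all pools. Other settings gave -1.20 to -0.66, -1.46 to -0.88, 6.68 to 12.7 and -24.9 to -13.9, of which -1.20, 12.7 and -24.9 came with neighbours within 20 kb. Neither strand measure passed in any of them, and its sign was not stable. With the replicate block in edgeR, the differences in neighbours called were 7.23 and -15.6 points and 217 weak reporters were called lower; DESeq2 called 214 and edgeR without the shift 220. Leaving out a replicate set levels and members anew but kept the calls made from both replicates, since calls from 1 RNA and 1 DNA count, which leave no residual degrees of freedom, were not run.

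Few RNA reads limit many of the values: 28 weak reporters had fewer than 10 RNA reads in all, and 27 had at least 100 in each replicate. Pools are the units of the tests, replicates are technical, and low eGFP was the sort, so reporters in other gates were not used here.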

Other observations

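Of the barcodes of the 228 weak reporters, 225 had 16 bases. The mean GC content per pool was 40.8% ± 2.09 for weak reporters and 41.5% ± 0.831 for other reporters (SD, n = 6 pools), and it was higher for weak reporters in mPGK-B and mPGK-D. The distance to the nearest neighbour from another pool had a median of 13997.5 bp for weak reporters and 8957 bp for other reporters. The 38 weak reporters with at least 2 weak integrations around them had a median of 1350.5 DNA reads, and the 111 without weak company had a median of 2080.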
